A study of Mus musculus with 6 samples.

Results

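The genes described here encode proteins of the tight junction, the belt that closes the space between neighbouring epithelial cells near their apical side. They were chosen by symbol and are the claudins Cldn1, Cldn2, Cldn3, Cldn4, Cldn7, Cldn8 and Cldn10, the occludin gene Ocln, the scaffold gene Tjp1 (ZO-1) and the adhesion gene F11r (JAM-A). The table gives their symbols in capitals (CLDN1, CLDN2, CLDN3, CLDN4, CLDN7, CLDN8, CLDN10, OCLN, TJP1 and F11R). These are 10 of the 24908 genes in a table of bulk RNA-seq values from 6 libraries. The libraries come from 1 wild-type (WT) and 1 MYC mouse, whose prostates were divided into the ventral (VP), dorsolateral (DLP) and anterior (AP) lobes, so that each lobe of each genotype has 1 library. Both animals were male FVB littermates, 12 weeks old and kept on a purified diet from weaning. The MYC mouse was heterozygous for a human c-MYC transgene under the ARR2Pb promoter, a form of the androgen-regulated probasin promoter that is active in the prostate epithelium, and at this age its lobes hold prostatic intraepithelial neoplasia to a degree that differs between lobes. Lobes were dissociated with enzymes into a suspension of single cells before RNA was taken. The 3 WT libraries share 1 animal and so do the 3 MYC libraries. Genotype and animal therefore cannot be told apart, and no p-value is given.

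Claudins are membrane proteins whose extracellular loops join across the gap between cells into strands. Some of them seal the gap against ions, and others, such as Cldn2 and Cldn10, line pores for particular ions, so that the mix of claudins sets what can pass between the cells. Occludin lies in the same strands, JAM-A is an immunoglobulin-like molecule that helps to place the junction and to set cell polarity, and ZO-1 ties the strands to the actin cytoskeleton. In the prostate the tight junctions join the luminal secretory cells, which keep the contents of the gland apart from blood, while basal cells below them also make some claudins.

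The unit of the table is FPKM, a gene's fragments per kilobase of its transcript relative to the mapped reads of the library. It corrects for transcript length and so allows levels of different genes to be set side by side. Differences between libraries are given as the ratio of FPKM ("times") and as the log2 ratio, log2((FPKM + 1)/(FPKM + 1)), and are called past 2-fold where the log2 ratio is at least 1 in size. The comparisons cover the 12361 genes whose mean FPKM was 1 or more, which include 9 of the 10 genes. Depth was estimated from the steps that 1 read makes in the FPKM of low genes, at 25.4 M mapped reads in WT AP and 34.6 M to 49.9 M in the others. Exact 95% Clopper-Pearson intervals of each ratio follow from it. They cover the counting error of the libraries only, and not the difference between animals.

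The row named Myc had 230.0, 200.6 and 226.4 FPKM in WT AP, DLP and VP and 230.9, 586.1 and 1696 FPKM in MYC AP, DLP and VP, so that it was higher in MYC DLP and MYC VP than in WT and close to its WT value in MYC AP. Reads were mapped to the mouse genome mm10, and how far this row counts reads of the human transgene was not tested. The luminal keratins Krt8 and Krt18 had at least 387.9 FPKM and the prostate factor Hoxb13 at least 37.9 FPKM in each library. Non-epithelial cells were also present, and no marker of the endothelial, hematopoietic, smooth muscle or fibroblast lists was at 0 in any library. A list of 8 basal markers summed to 2382, 1627 and 777.9 FPKM in WT AP, DLP and VP and to 1309, 2173 and 528.2 FPKM in MYC. A list of 8 seminal vesicle genes summed to 524.1 FPKM in MYC AP with none of them at 0, to 11.3 FPKM in MYC DLP with 1 at 0, and to at most 0.186 FPKM in the other 4 libraries, where 5 to 8 were at 0. MYC AP thus holds seminal vesicle transcripts that the WT libraries and MYC VP nearly lack, and their part in the AP values below was not tested. Because FPKM are relative, each ratio was also computed under 5 other scalings of the libraries, among them equal Krt8 and Krt18 levels and equal levels of the epithelial genes Cdh1 and Epcam, and flips of sign are given beside the results. Counts past 2-fold are those of the values as deposited unless a scaling is named.

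Promoter sequences from RefSeq (assembly GRCm38.p6) were found for 9 of the 10 genes. Cldn3 (chromosome 5, 134986214 to 134987476) and Cldn4 (chromosome 5, 134945123 to 134946934) are neighbours with no other coding gene between them, 39279 bases apart, and their levels over the libraries differ. Cldn10 (chromosome 14, 118787871 to 118874525) has a pair of annotated starts, 67079 bases apart, which begin its 2 forms with different ion preference, and the table gives the sum of both. The 250 bases before these starts are shown 5′ to 3′ on the strand of the gene, with the GC box GGGCGG or its reverse complement in capitals.
Cldn3, chr5:134985964-134986213, plus strand: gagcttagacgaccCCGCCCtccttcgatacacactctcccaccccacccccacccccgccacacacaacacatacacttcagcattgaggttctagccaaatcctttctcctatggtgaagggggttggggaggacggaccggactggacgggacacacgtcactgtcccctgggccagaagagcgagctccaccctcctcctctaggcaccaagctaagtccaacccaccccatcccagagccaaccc
Cldn4, chr5:134946935-134947184, minus strand: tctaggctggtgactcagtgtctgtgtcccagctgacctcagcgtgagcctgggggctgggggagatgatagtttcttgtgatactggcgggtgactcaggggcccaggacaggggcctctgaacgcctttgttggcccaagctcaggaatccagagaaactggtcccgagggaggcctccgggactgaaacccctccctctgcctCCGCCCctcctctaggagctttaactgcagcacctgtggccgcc
Cldn10 upstream start, chr14:118787621-118787870, plus strand: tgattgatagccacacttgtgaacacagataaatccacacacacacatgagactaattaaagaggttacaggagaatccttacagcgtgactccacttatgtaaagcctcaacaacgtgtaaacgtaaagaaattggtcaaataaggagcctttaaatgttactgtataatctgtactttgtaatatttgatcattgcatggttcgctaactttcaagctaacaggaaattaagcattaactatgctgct
Cldn10 downstream start, chr14:118854700-118854949, plus strand: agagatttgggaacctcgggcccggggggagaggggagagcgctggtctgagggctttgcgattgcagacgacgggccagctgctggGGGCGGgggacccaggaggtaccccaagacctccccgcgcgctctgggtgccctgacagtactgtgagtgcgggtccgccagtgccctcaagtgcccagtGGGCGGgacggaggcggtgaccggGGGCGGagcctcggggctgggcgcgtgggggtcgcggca
The window around the upstream Cldn10 start (250 bases before to 50 after) holds 36% G or C and 4 CpG, and that around the downstream start 72% and 27 CpG, against medians of 52.7% and 7 over 32851 promoters. The GC box occurred on either strand in 35.7% of those promoters, and it was found at the downstream Cldn10 start, and not at the upstream one, and at Cldn1, Cldn3, Cldn4, Ocln, Tjp1 and F11r. Cldn7 (chromosome 11, 69964779 to 69967886) has it at the second of its 2 starts and Cldn2 lacks it. On either strand, the E-box CACGTG (7.15% of promoters), and the grainyhead motif AACCGGTT (0.146%) were in none of the 9 genes' windows. Nor was the full androgen receptor element (0.0487%), searched as the hexamer AGAACA, any 3 bases and TGTTC. The hexamer alone (19.0%) and the TATA box TATAAA (13.6%) were found at Cldn2 alone. A match is a description of these letters, and its absence from a window of this length says nothing of the factor.

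Cldn4, which encodes a claudin of tight epithelia, had the highest level of the 10 genes in each library. It had 2729.6, 1627.5 and 2213.0 FPKM in WT AP, DLP and VP and 1458.2, 1796.3 and 1732.5 FPKM in MYC AP, DLP and VP. Its highest value was 1.87 times its lowest. In comparison, Epcam, an epithelial surface protein that binds claudins, had 274.1 to 411.4 FPKM over the libraries, and Cdh1 (E-cadherin), the adhesion protein of the neighbouring adherens junction, 221.4 to 498.4 FPKM.

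Cldn3, a sealing claudin, set the VP apart from the other lobes. It had 75.3, 118.8 and 538.1 FPKM in WT AP, DLP and VP, and 75.0, 156.1 and 548.2 FPKM in MYC AP, DLP and VP. Both VP libraries lie far above the other 4, and the order of the lobes is the same in both genotypes. The WT VP level was 4.53 times that of WT DLP (interval 4.38 to 4.69), and the WT AP level was 7.15 times lower than that of WT VP (6.77 to 7.55). The signs of these lobe differences held under the 5 other scalings, but with Krt8 and Krt18 set equal the log2 ratio of WT VP against WT DLP was 0.60 in place of 2.17, and that of WT AP against WT VP -1.21 in place of -2.82. Krt8, made by luminal cells, had 399.9, 445.7 and 1292 FPKM in WT AP, DLP and VP, and Cldn3 stood at 18.8%, 26.6% and 41.7% of it. In MYC AP, DLP and VP it stood at 19.3%, 29.4% and 49.8%. An exon of Wbscr25 overlaps Cldn3 on the opposite strand, and how the counting treated strand is not given in the sources used here. In bulk tissue, more cells of a type and more RNA per cell cannot be told apart.

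**Figure D1:**
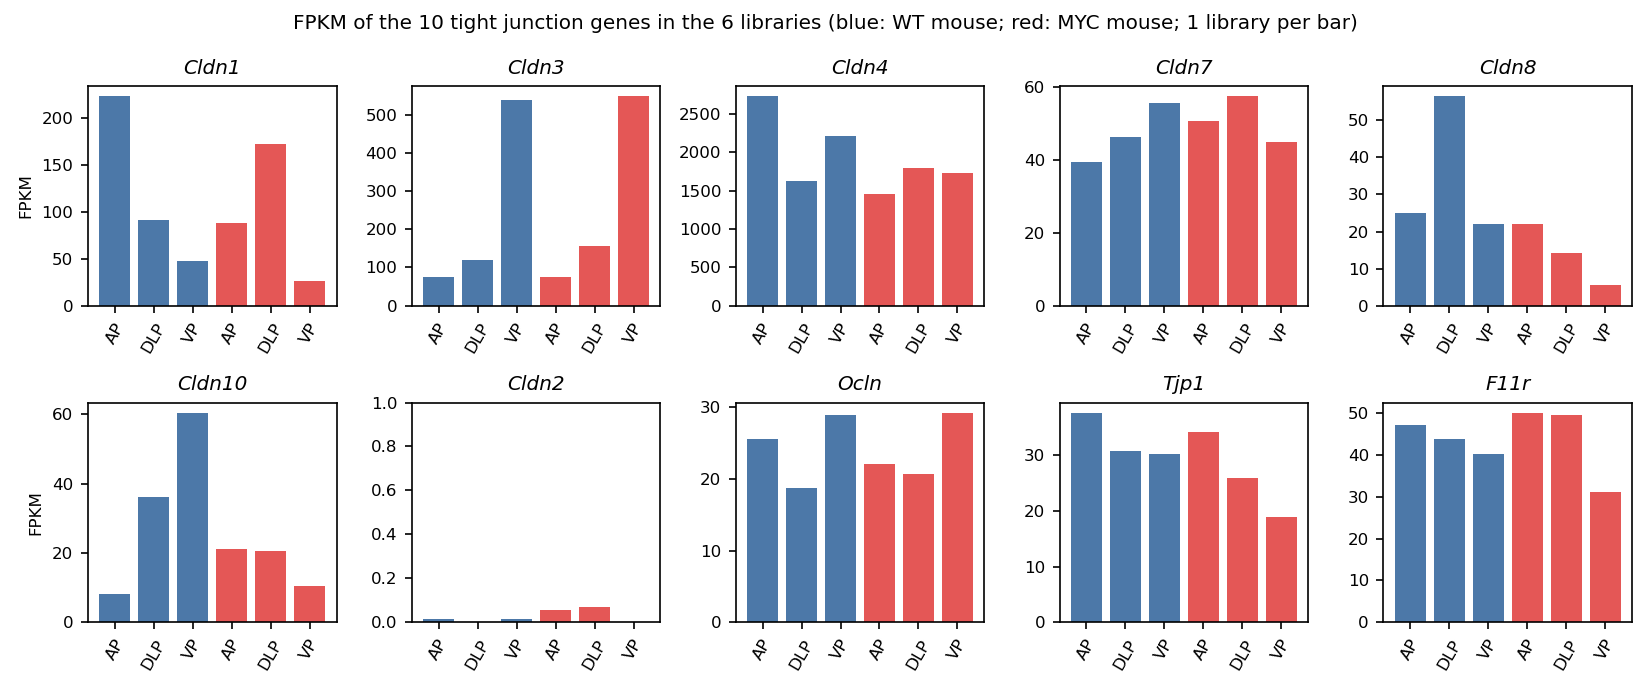
FPKM of each of the 10 genes (vertical axes, linear, from 0, with a scale of their own) in the 6 libraries, 1 bar per library, WT in blue and MYC in red. Cldn3 is highest in both VP libraries, Cldn8 in WT DLP, Cldn1 in WT AP, and Cldn2 stays under 0.1 FPKM.

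Cldn1 (chromosome 16, 26356645 to 26371839), a claudin needed for the water barrier of the skin, had an order of lobes opposite to that of Cldn3 in WT. It had 223.3, 91.0 and 48.2 FPKM in WT AP, DLP and VP, and 88.6, 172.9 and 25.9 FPKM in MYC AP, DLP and VP. WT AP was the highest and MYC VP the lowest, 8.62 times apart. In WT, AP had 2.45 times the level of DLP (interval 2.40 to 2.51) and 4.64 times that of VP (4.51 to 4.77), and both signs held under the 5 scalings. With Krt8 and Krt18 set equal the log2 ratio of WT AP against WT VP was 3.78 in place of 2.19. In the MYC mouse DLP was highest, 1.95 times above AP and 6.67 times above VP. The ratio of Cldn3 to Cldn1 thus ran from 0.337 in WT AP to 11.2 in WT VP and 21.2 in MYC VP.

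Krt14 and Krt17, keratins of basal cells, had patterns close to that of Cldn1. Among the 5359 other genes whose mean FPKM was 10 or more, likeness to a gene was measured as the root mean square difference of the centred log2(FPKM + 1) values over the 6 libraries. The nearest to Cldn1 were Fhl2, a LIM domain protein, at 0.20, Krt14, a basal keratin, at 0.23, and Oaf at 0.24, against a median of 1.10 over the 5359 genes. The basal keratin Krt17 was at rank 10 and Krt5 at rank 144, while the luminal keratins Krt8 and Krt18 were at ranks 5114 and 5107. Krt5 had log2 ratios of MYC against WT of 0.0031 in AP and -0.04 in VP, where Cldn1 had -1.32 and -0.87. Krt14 had 760.5, 378.2 and 158.3 FPKM in WT AP, DLP and VP, and 333.1, 438.1 and 104.9 FPKM in MYC AP, DLP and VP. Cldn1 stood at 24.1% to 30.4% of Krt14 in 5 libraries and at 39.5% in MYC DLP. In the other genes of the basal list the same order was not seen throughout, since Trp63, the basal transcription factor, had 5.79, 3.81 and 3.17 FPKM in WT AP, DLP and VP and 19.2, 13.5 and 0.814 FPKM in MYC.

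Cldn8 (chromosome 16, 88560826 to 88563183), a sealing claudin of the distal kidney tubule and colon, was highest in WT DLP. It had 25.0, 56.5 and 22.0 FPKM in WT AP, DLP and VP, and 22.2, 14.2 and 5.61 FPKM in MYC AP, DLP and VP. The WT DLP value stands alone, and the MYC DLP and MYC VP values lie below those of the other 4 libraries. The level of WT DLP was 2.57 times that of WT VP (interval 2.45 to 2.7) and 2.26 times that of WT AP (2.13 to 2.40), with signs that held under the 5 scalings. With equal sums the log2 ratio of WT AP against WT DLP was -0.94 in place of -1.14 and no longer past 2-fold, and with Krt8 and Krt18 set equal that of WT VP against WT DLP was -2.82 in place of -1.32. The nearest genes were Atp6v1c2, a subunit of the proton pump, at 0.13, Ugdh, which makes UDP-glucuronate, at 0.25, and Dpep1, a membrane dipeptidase, at 0.25, against a median of 0.99. Atp6v1c2 had 81.0, 134.9 and 63.7 FPKM in WT AP, DLP and VP and 64.1, 37.7 and 15.9 FPKM in MYC.

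Cldn10, which forms pores that pass cations or anions depending on the form, had the reverse order of lobes in the 2 mice. It had 8.13, 36.2 and 60.4 FPKM in WT AP, DLP and VP, and 21.2, 20.7 and 10.3 FPKM in MYC AP, DLP and VP. In WT it was lowest in AP and highest in VP, and in the MYC mouse VP was lowest and AP and DLP were within counting error of each other. The WT AP level was 7.43 times lower than that of WT VP (interval 6.48 to 8.59) and 4.45 times lower than that of WT DLP (3.87 to 5.16), while the log2 ratio of WT VP against WT DLP, 0.72, turned to -0.81 with Krt8 and Krt18 set equal. That of WT AP against WT VP was then -1.20 in place of -2.75. The WT AP value rests on about 215 reads, the fewest of any of the 9 genes. The nearest genes were Adh1, an alcohol dehydrogenase, at 0.35, Mgst1, a microsomal glutathione transferase, at 0.35, and Mme, the membrane protease neprilysin, at 0.37, against a median of 0.99. They were less close than the nearest genes of Cldn1, Cldn3 and Cldn8. Krt4, a keratin of luminal progenitor cells, was at rank 80, with 10.2, 20.3 and 53.3 FPKM in WT AP, DLP and VP and 30.1, 45.9 and 7.09 FPKM in MYC. Psca and Ly6a, also markers of those cells, were at ranks 2353 and 5161.

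The nearest genes of Cldn3 were Slc9a2, a sodium-proton exchanger, at 0.17, Prss8, the membrane protease prostasin, at 0.18, and Gchfr, a regulator of tetrahydrobiopterin synthesis, at 0.20, against a median of 1.20. Prss8 had 17.3, 27.3 and 136.4 FPKM in WT AP, DLP and VP and 24.9, 42.3 and 138.4 FPKM in MYC. Krt8 was at rank 38 and Krt18 at rank 47. These ranks compare patterns over 6 libraries of 2 animals that share depth and dissociation, and they are descriptions.

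**Figure D2:**
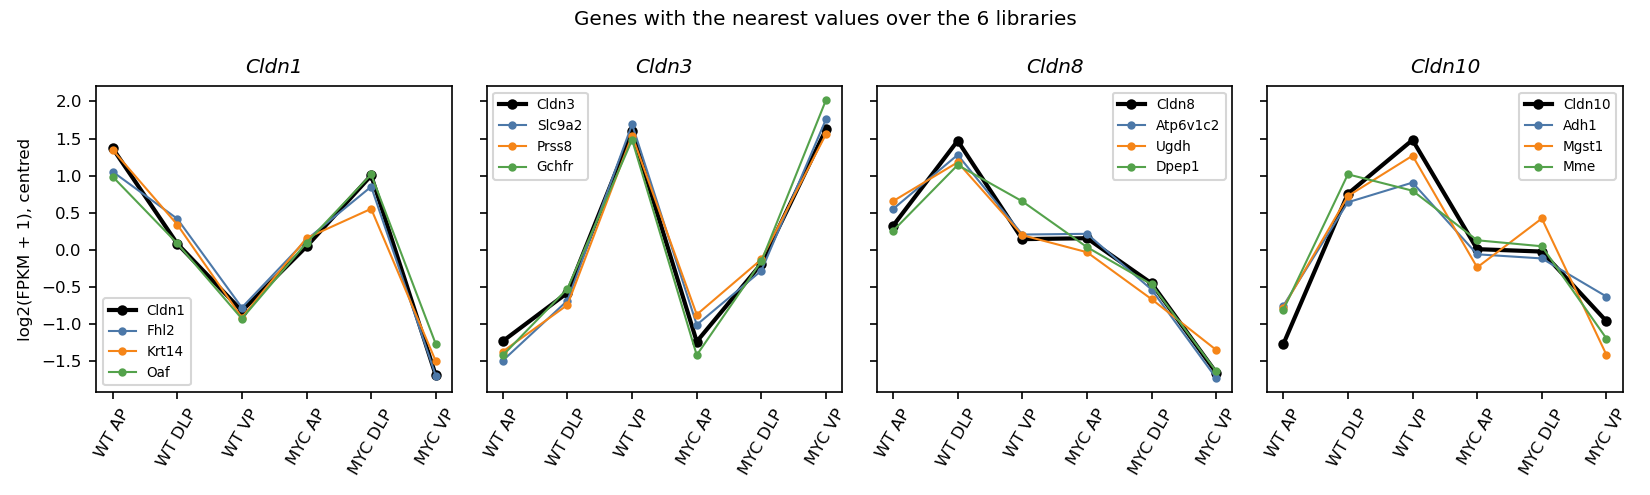
Log2(FPKM + 1) less its mean over the 6 libraries (vertical axis) for Cldn1, Cldn3, Cldn8 and Cldn10 (black) and the 3 nearest genes of each (colours), 1 point per library. The nearest genes differ from Cldn1, Cldn3 and Cldn8 by 0.13 to 0.25 (root mean square, log2) and from Cldn10 by 0.35 to 0.37.

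Cldn7, a claudin also found along the lateral membrane, varied little. It had 39.4, 46.4 and 55.8 FPKM in WT AP, DLP and VP, and 50.8, 57.4 and 45.0 FPKM in MYC AP, DLP and VP, a range of 1.46 times. Within that order, WT DLP and MYC VP, and MYC DLP and WT VP, were within counting error of each other.

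Ocln, Tjp1 and F11r, the members that are not claudins, had even levels as well. Ocln (chromosome 13, 100496504 to 100552718) had 25.6, 18.8 and 28.9 FPKM in WT AP, DLP and VP, and 22.1, 20.6 and 29.2 FPKM in MYC. Tjp1 (chromosome 7, 65296165 to 65527850) had 37.6, 30.8 and 30.3 FPKM in WT AP, DLP and VP, and 34.2, 26.0 and 19.0 FPKM in MYC. F11r (chromosome 1, 171437561 to 171464593) had 47.1, 43.9 and 40.2 FPKM in WT AP, DLP and VP, and 50.1, 49.7 and 31.2 FPKM in MYC. Highest and lowest differed by 1.56 times for Ocln, 1.98 times for Tjp1 and 1.60 times for F11r, against 7.31 to 10.1 times for Cldn1, Cldn3, Cldn8 and Cldn10. MYC VP was the lowest library of both Tjp1 and F11r. The 2 VP libraries of Ocln, the WT DLP and WT VP libraries of Tjp1, and the WT AP and WT DLP libraries of F11r were within counting error of each other.

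Cldn2 (X chromosome, 139800808 to 139811386), the claudin of leaky epithelia that forms cation pores, was nearly absent from the table. It is listed at 0 in WT DLP and MYC VP and had at most 0.0703 FPKM elsewhere, in MYC DLP, which corresponds to about 3 reads. No library can be ranked above another on such counts.

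Since claudin proteins share the strands, each claudin was also expressed as a percent of the summed FPKM of the 31 genes named as claudins. Cldn4 made up 87.4%, 81.5% and 74.1% of that sum in WT AP, DLP and VP, and 84.0%, 80.1% and 72.3% in MYC AP, DLP and VP. Cldn3 made up 2.41%, 5.95% and 18.0% in WT AP, DLP and VP, and 4.32%, 6.96% and 22.9% in MYC. Cldn1 made up 7.15%, 4.56% and 1.61% in WT AP, DLP and VP, and 5.11%, 7.70% and 1.08% in MYC. The claudin next after Cldn4 was therefore Cldn1 in both AP libraries and in MYC DLP, and Cldn3 in WT DLP and both VP libraries. The ratio of Cldn4 to Cldn3, which no scaling of the libraries can alter, was 36.3, 13.7 and 4.11 in WT AP, DLP and VP and 19.5, 11.5 and 3.16 in MYC. Cldn8 and Cldn10 made up at most 2.83% and 2.02%, in WT DLP and WT VP. In MYC VP they made up 0.234% and 0.431%, and for Cldn10 WT AP alone was lower, with 0.260%.

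**Figure D3:**
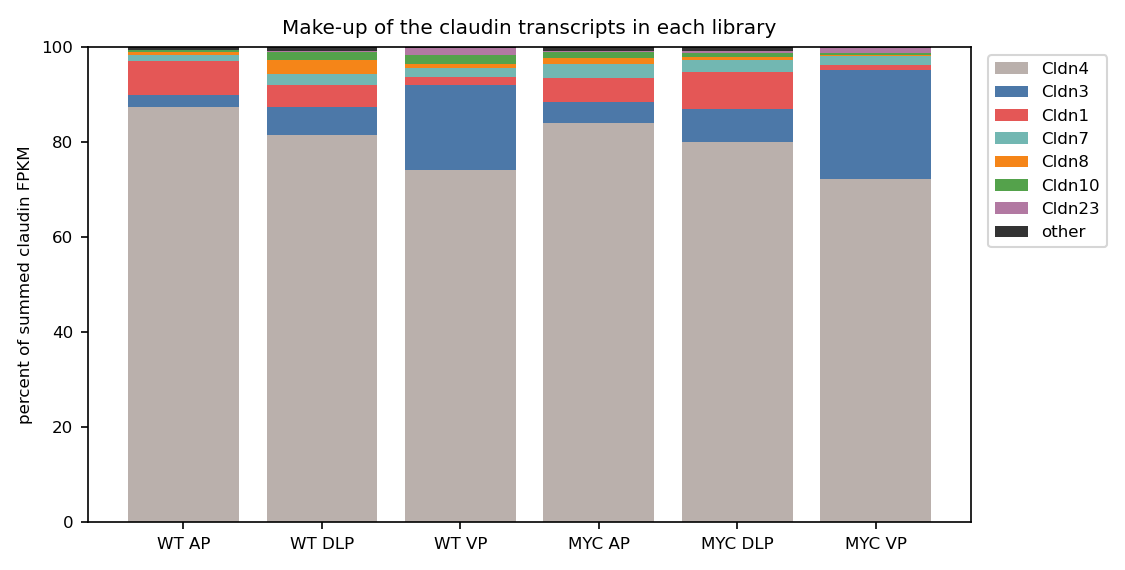
Percent of the summed FPKM of 31 claudin genes (vertical axis, 0 to 100) taken by each claudin in the 6 libraries, 1 stacked bar per library. Cldn4 takes 72.3% to 87.4%, and Cldn3 18.0% and 22.9% in the VP libraries against 2.41% to 6.96% elsewhere.

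Between the WT lobes, 2 of the 9 genes compared were past 2-fold in VP against DLP, where 8.92% of all genes were past it, 2.63% higher and 6.29% lower. Cldn3 was higher and Cldn8 lower in VP. In AP against DLP 3 genes were past 2-fold, against 5.16% of all genes (1.31% higher and 3.85% lower), with Cldn1 higher and Cldn8 and Cldn10 lower in AP. In AP against VP it was 3 genes, against 18.2% of all genes (10.3% higher and 7.89% lower), with Cldn1 higher and Cldn3 and Cldn10 lower in AP. These comparisons share their 3 libraries. The median log2 ratios of the 9 genes were 0.26, 0.10 and 0.18 in these comparisons, and those of all genes -0.13, -0.10 and 0.01. With Krt8 and Krt18 set equal, 6 genes were past 2-fold in VP against DLP, 0 higher and 6 lower, and Cldn3 (0.60) was no longer past it. In AP against VP, 9 genes were then past it, 7 higher and 2 lower. That scaling moved the median of all genes to -1.40 in VP against DLP and 1.30 in AP against VP. Of the 8 basal markers, 6 were past 2-fold higher in WT AP than in WT VP, and of the 8 endothelial markers 8 (for the basal markers 8 with Krt8 and Krt18 and 4 with Cdh1 and Epcam set equal). Of the 8 hematopoietic markers 6 and of the 8 fibroblast markers 4 were also higher in WT AP than in WT VP, and the luminal markers Krt8, Krt18 and Hoxb13 were lower. In VP against DLP, 8 of the 8 endothelial, 3 of the 8 basal and 3 of the 8 fibroblast markers were past 2-fold lower, and Krt8 and Krt18 higher. In AP against DLP, 3 of the 8 hematopoietic markers were higher and 2 of the 8 smooth muscle markers lower. The part of these cells in the lobe differences was not tested.

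The comparison of MYC with WT in each lobe asks how the junction genes differ between the transgenic animal and its control. In VP, 2 of the 9 genes were past 2-fold, Cldn8 and Cldn10, both lower in MYC, where 12.8% of all genes were past 2-fold, 6.88% higher and 5.95% lower. Cldn10 was 5.85 times lower in MYC VP than in WT VP (interval 5.30 to 6.48) and Cldn8 3.92 times lower (3.55 to 4.32). Cldn1 was 1.86 times lower (1.78 to 1.94), Tjp1 1.60 times lower (1.52 to 1.68), F11r 1.29 times (1.20 to 1.38), Cldn4 1.28 times (1.27 to 1.29) and Cldn7 1.24 times lower (1.15 to 1.34). These 7 signs held under the 5 other scalings. Cldn3 and Ocln had log2 ratios of 0.03 and 0.02, with counting intervals that include no difference and signs that turn under 3 of the scalings. The median log2 ratio of the 9 genes was -0.35 and that of all genes 0.04.

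The VP libraries also differ in their cells. The luminal markers Krt8 and Krt18 had log2 ratios of -0.23 and -0.29, and the basal list had a median of -0.44 with 1 of 8 markers, Trp63, past 2-fold lower, though not with Krt8 and Krt18 set equal (-0.77). The hematopoietic list summed to 24.5 FPKM in WT and 112.2 FPKM in MYC and the fibroblast list to 694.6 and 209.0 FPKM, and 2 of the 8 smooth muscle markers were past 2-fold lower. Relative to equal Krt8 and Krt18, Cldn10 and Cldn8 had log2 ratios of -2.11 and -1.44. The part of the other cell types in these values was not tested.

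In DLP, 1 of the 9 genes was past 2-fold, where 9.85% of all genes were past it, 6.46% higher and 3.39% lower. Cldn8 was 3.98 times lower in MYC (interval 3.72 to 4.25), close to its ratio in VP. Cldn10 was 1.75 times lower (1.61 to 1.91) and Cldn1 1.90 times higher (1.86 to 1.94), and the signs of all 3 held under the 5 scalings. Cldn3 was 1.31 times higher (1.26 to 1.37), a sign that also held, and so did those of Cldn7, with a log2 ratio of 0.30, and Tjp1, with -0.24. The log2 ratios of Cldn4, Ocln and F11r were 0.14, 0.13 and 0.17, and these signs turned under 2, 2 and 1 of the scalings. Beside Cldn1, 7 of the 8 basal markers had log2 ratios above 0 in DLP, with Krt5 (1.09) and Trp63 (1.59) past 2-fold, and the luminal marker Krt19 (1.22) was past 2-fold higher. With Krt8 and Krt18 set equal Krt5 and Krt19 were not past it (0.86 and 0.99). Of the 6 luminal progenitor markers, 3 (Krt4, Ly6a and Krt7) were past 2-fold higher, with a median of 0.92, or 1 under 2 of the scalings. The hematopoietic list summed to 71.1 FPKM in WT and 255.1 FPKM in MYC. The 8 smooth muscle markers had log2 ratios below 0, with 3 past 2-fold lower, and of the 8 fibroblast markers 2 were higher and 3 lower. What part these cells have in the DLP values was not tested.

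In AP, 2 of the 9 genes were past 2-fold, where 2.65% of all genes were past it, 2.05% higher and 0.599% lower. Cldn10 was 2.61 times higher in MYC (interval 2.25 to 3.04) and Cldn1 2.52 times lower (2.46 to 2.58), and with Cdh1 and Epcam set equal Cldn1 was no longer past 2-fold (-0.86). Cldn4 was 1.87 times lower (1.86 to 1.89), with a log2 ratio of -0.90, just inside the 2-fold limit. Cldn7 was 1.29 times higher (1.18 to 1.42), and these 4 signs held under the 5 scalings. Cldn8 was 1.13 times lower (1.05 to 1.21), and its sign, like those of Ocln and Tjp1 (log2 ratios of -0.20 and -0.13), turned with Cdh1 and Epcam set equal, that of Tjp1 also with Krt8 and Krt18. Cldn3 (-0.01) and F11r (0.09) had counting intervals that include no difference and signs that turned under 2 and 1 of the scalings. Of the basal markers, Krt14 (-1.19) and Krt17 (-1.44) were past 2-fold lower and Trp63 (1.57) higher in MYC AP, the first pair not with Cdh1 and Epcam set equal (-0.73 and -0.98), and of the luminal progenitor markers Krt4 (1.48) and Psca (1.28) were higher. Of the 8 fibroblast markers the collagens Col1a1 (2.04), Col1a2 (1.41) and Col3a1 (1.92) were past 2-fold higher, and 7 of the 8 smooth muscle markers had log2 ratios above 0, with a median of 0.65. The part of these cells in the AP values was not tested. The Myc row had nearly the same value in both AP libraries, and MYC AP holds the seminal vesicle transcripts described above.

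**Figure D4:**
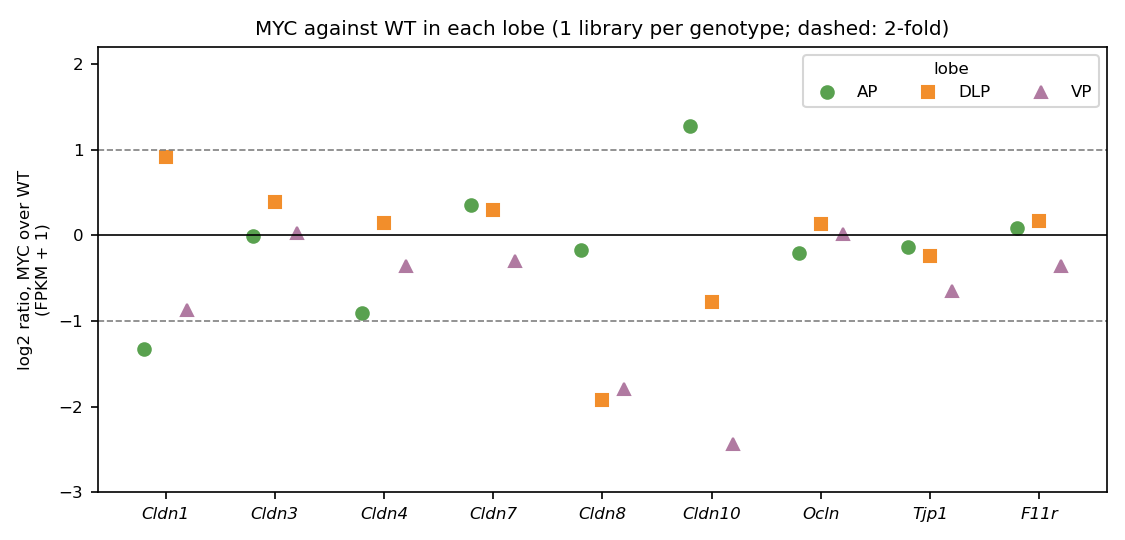
Log2 ratio of MYC against WT (vertical axis, FPKM + 1) for the 9 genes compared, with 1 point per lobe (AP circles, DLP squares, VP triangles) and dashed lines at 2-fold. Cldn8 lies below -1 in DLP and VP and near 0 in AP, and Cldn10 runs from 1.28 in AP to -2.44 in VP.

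The other claudins were few and low. Of 23 claudins and claudin relatives outside the 10 genes, 10 or 11 were listed at 0 in each library, 4 had a mean of at least 1 FPKM, and 2 reached 10 FPKM in some library. Cldn23 had 4.33, 4.70 and 40.95 FPKM in WT AP, DLP and VP and 3.89, 9.57 and 21.0 FPKM in MYC, so that it too was highest in VP. Its log2 ratio of WT VP against WT DLP was 2.88 and stayed above 0 under the 5 scalings. Cldnd1, a claudin-domain protein, had 29.5, 31.1 and 18.4 FPKM in WT AP, DLP and VP and 23.8, 22.8 and 14.1 FPKM in MYC. Cldn5, the claudin of blood vessels, had 6.43, 4.32 and 1.20 FPKM in WT AP, DLP and VP and 5.73, 7.79 and 1.27 FPKM in MYC, which is 10.1% to 19.2% of the endothelial marker Pecam1 in each library. None of the 4 was past 2-fold between MYC and WT in any lobe as deposited, but Cldn23 in VP, at -0.93, was past it under 3 of the 5 scalings (to -1.20).

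Among 34 other tight junction genes, 32 were compared. In WT AP against WT VP, 5 were past 2-fold higher and 6 lower, where 10.3% and 7.89% of all genes were, with a median log2 ratio of -0.0044 over the 32. Those higher in AP included the adhesion molecules Jam2 and Jam3, Amotl1 and Arhgef2, and these signs held under the 5 scalings, but with Cdh1 and Epcam set equal Amotl1 and Arhgef2 were not past 2-fold (0.74 and 0.85). Lower in AP were Tjp3 (ZO-3), the actin linkers Cgn and Cgnl1, the occludin relative Marveld3, and Ildr1 and Igsf5, and the signs of these 6 turned with Krt8 and Krt18 set equal. The counts of 5 and 6 became 19 and 0 with that scaling, 2 and 9 with Cdh1 and Epcam, and 6 and 4 with equal sums. Cgn had 14.5, 17.6 and 42.2 FPKM in WT AP, DLP and VP and 17.3, 20.2 and 47.5 FPKM in MYC, with both VP libraries highest. In VP against DLP in WT, Cgn was higher and Jam2, Jam3 and Pard6g were lower past 2-fold, where 2.63% and 6.29% of all genes were, and the sign of Cgn turned with Krt8 and Krt18 set equal. Jam2 and Pard6g were not past it under 2 of the scalings, and 22 of the 32 genes were lower with Krt8 and Krt18 set equal. In AP against DLP in WT, Igsf5 was lower, where 3.85% of all genes were, but at -1.01 it stayed past 2-fold under 1 of the 5 scalings alone. Pard6g stayed under 10 FPKM and is named, like Ect2, because it was past 2-fold.

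Between MYC and WT, 5 of the 32 tight junction genes were past 2-fold in VP, where Ybx3 and Ect2 were higher and Ildr1, Igsf5 and Magi3 lower in MYC. Of all genes, 12.8% were past 2-fold in VP, 9.85% in DLP and 2.65% in AP. Ybx3, a cold-shock protein that binds ZO-1, had 66.0 FPKM in VP of the WT mouse and 139.5 FPKM in that of the MYC mouse, and Ect2 also acts in cell division. Ildr1, which marks contacts of 3 cells, had 15.1 and 6.33 FPKM, and Igsf5, a JAM relative, 15.9 and 6.42 FPKM. In DLP, Ect2 alone was past 2-fold, higher in MYC, and none was in AP as deposited (Ect2 at up to 1.03 under 1 scaling). The signs of these genes held under the 5 scalings, and so did the calls of Ect2 in VP and DLP. With Krt8 and Krt18 or with Cdh1 and Epcam set equal, none of the 32 was past 2-fold lower in VP (Ildr1, Igsf5 and Magi3 reached -0.82, -0.88 and -0.71), and under the other 3 scalings 4 or 5 were lower and Ybx3 was no longer past it (down to 0.80). The median log2 ratios over the 32 genes were -0.14 in VP, 0.09 in DLP and 0.08 in AP, near those of all genes (0.04, 0.03 and 0.13). The other named genes of this list, each reaching 10 FPKM in some library and none of them past 2-fold in the comparisons above as deposited, were Lsr, Vapa, Prkci, Cxadr, Crb3, Sympk, Pard3, Marveld2, Pard6b, Tjap1, Amotl2, Mpp5 and Patj.

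The genes of the other kinds of junction are also set against 12.8% of all genes past 2-fold between MYC and WT in VP, 9.85% in DLP and 2.65% in AP. Of 13 adherens junction genes, Nectin1 was past 2-fold lower in VP, with 7.98 FPKM in WT and 3.48 FPKM in MYC, and none was past it in DLP or AP. Cdh1, Epcam, Ctnna1, Ctnnb1, Vcl, Ctnnd1, Jup, Nectin2, Afdn and Nectin4 also reached 10 FPKM, and Cdh1 had 498.4, 348.2 and 330.5 FPKM in WT AP, DLP and VP and 306.8, 301.3 and 221.4 FPKM in MYC. Of 9 desmosome genes, Ppl was past 2-fold lower in VP, with 18.2 and 8.39 FPKM, and Pkp1 higher in DLP, with 7.86 and 20.8 FPKM. Perp, Dsp, Pkp3, Dsg2 and Dsc2 reached 10 FPKM and were past 2-fold in none of the 3 lobes. The signs of Nectin1, Ppl and Pkp1 held under the 5 scalings, as did the call of Pkp1. Nectin1 and Ppl, just past the limit in VP, were not past 2-fold with Krt8 and Krt18 or with Cdh1 and Epcam set equal (up to -0.68 and -0.74). Nectin1 in AP with medians of ratios (-1.03) and Perp in VP with both kinds of equal sums (to -1.05) were past it.

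Gap junction genes encode the connexins of direct channels between cells. Gjb1 (connexin 32) had 3.56, 11.8 and 33.2 FPKM in WT AP, DLP and VP and 10.6, 18.6 and 13.4 FPKM in MYC. It was past 2-fold lower in MYC VP (-1.25) and higher in MYC AP (1.35), the directions of Cldn10 in these lobes, and its signs held under the 5 scalings, though with Krt8 and Krt18 set equal it was not past 2-fold in VP (-0.96). Gjb2 had 2.35, 2.12 and 21.5 FPKM in WT AP, DLP and VP and 2.54, 4.80 and 24.8 FPKM in MYC, with both VP libraries highest as for Cldn3. Gja1 (connexin 43) had 72.4, 57.9 and 25.9 FPKM in WT AP, DLP and VP and 55.6, 73.4 and 21.0 FPKM in MYC, and it was past 2-fold in no lobe.

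Of 12 genes for factors that regulate claudin genes, 1 was past 2-fold higher and 1 lower in MYC VP, and the same counts held in DLP, where 12.8% and 9.85% of all genes were past 2-fold in either direction. The genes of this paragraph were named after their values were seen. Elf3, an epithelial ETS factor, was the higher gene in both lobes. It had 17.3, 27.1 and 45.6 FPKM in WT AP, DLP and VP and 35.3, 85.3 and 129.9 FPKM in MYC, with log2 ratios of 0.99, 1.62 and 1.49. The lower genes were Snai2 (Slug) in VP and Twist1 in DLP, repressors of epithelial genes that mesenchymal and basal cells also express. Snai2, at -1.12, was not past 2-fold with Krt8 and Krt18 or with Cdh1 and Epcam set equal (up to -0.77), where no gene of the list was lower in VP, and 2 and 4 were lower with equal sums and with equal sums without the 20 highest genes. In AP, Elf3 was past it under 2 of the scalings (to 1.43). Ovol1 was the 1 gene past 2-fold in AP, where 2.65% of all genes were, with 44.1 FPKM in WT and 13.6 FPKM in MYC. The grainyhead factors Grhl1 and Grhl2 were past 2-fold in no lobe as deposited, but Grhl1 in VP (-1.01) and Grhl2 in AP (1.11) were under 1 scaling each. A list of 7 genes on proteases that cut or traffic claudins, and their inhibitors, also holds Cap1, which in the mouse encodes an actin-binding protein and no protease. Of the 7, Tmprss2 was past 2-fold lower in VP, with 23.8 and 5.38 FPKM, and none was past it in DLP or AP.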

How the data were processed

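Bulk RNA-seq of 6 libraries was analysed. Per the labels and the study's methods, poly(A) RNA gave stranded libraries read as single ends, which the authors mapped with STAR to mm10 and quantified with Cufflinks. The deposited values are FPKM per gene symbol, as computed by the authors. The methods call them read counts, but they are not whole numbers, so no count model was run, and the annotation is not given in the sources used here. With 1 library per group there was no test.

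The 10 genes and the gene lists were chosen with earlier results of these data known. Of the 24908 symbols, 24344 matched a RefSeq gene table (GRCm38.p6), and 24826 with its synonyms, which gave the coordinates. Comparisons used log2(FPKM + 1), a minimum mean of 1 FPKM and a 2-fold threshold. Junction genes reaching 10 FPKM in any library were named, as were the 3 genes nearest to each of the 10 genes whose log2 range was at least 2. A few genes that these rules or lists include are not reported here.

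Reads were estimated from single-exon genes longer than 600 bases at under 0.3 FPKM, whose values fell within 3% of a whole read in 50.0% to 54.5% of cases against 6% by chance, and from transcript lengths less 200 bases. Depth ran from 25.4 M to 49.9 M mapped reads, and intervals cover counting error only. WT AP, with the fewest reads, is the least precise. Of the 75-base windows of the transcripts of the 10 genes, only 4 of F11r occurred in another gene. Alternatives were a pseudocount of 0.1, no filter, a minimum mean of 10 FPKM, and 5 scalings: medians of ratios, equal sums, equal sums without the 20 highest genes, equal Krt8 and Krt18, and equal Cdh1 and Epcam. Computations were tested on simulated libraries. Software versions were numpy 2.4.6, scipy 1.17.1, pandas 2.3.3 and matplotlib 3.10.9 under Python 3.11.15. The single-cell and ChIP-seq data of the study were not analysed here.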

Additional observations from a re-analysis of the deposited data

Results flagged for a closer look

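Cldn10, Cldn1 and Cldn4 had log2 ratios of MYC against WT with opposite signs in different lobes. For Cldn10 the ratio was -2.44 in VP, -0.78 in DLP and 1.28 in AP, so that VP less AP was -3.72 and DLP less AP was -2.06. For Cldn1 the ratio was -0.87 in VP, 0.92 in DLP and -1.32 in AP, so that VP less DLP was -1.79 and DLP less AP was 2.24. For Cldn4 the ratio was 0.14 in DLP and -0.90 in AP, a difference of 1.05, and the sign in DLP turned under 2 of the 5 scalings. These differences between lobes were not tested, since each lobe and genotype has 1 library.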

How the results depend on the processing

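No paired analysis was possible because each lobe and genotype has 1 library. For the same reason no library could be left out. Of 324 log2 ratios of the 9 genes under other pseudocounts or scalings, 130 stayed within the counting error, none of those past 2-fold changed sign, 35 smaller ones did, and 18 crossed 2-fold. With Krt8 and Krt18 set equal, 2 genes were past 2-fold in MYC against WT DLP in place of 1 (Cldn10 at -1.01). With that scaling, 6 were past it in WT VP against DLP in place of 2, 0 higher and 6 lower. In WT AP against VP it was then 9 in place of 3, 7 higher and 2 lower. With Cdh1 and Epcam set equal, 1 in place of 2 was past it in MYC against WT AP (Cldn1 at -0.86). With equal sums, 2 in place of 3 were past it in WT AP against DLP (Cldn8 at -0.94) and 3 in place of 2 in MYC against WT VP (Cldn1 at -1.10, and at -1.13 without the 20 highest genes). With medians of ratios, 3 in place of 2 were past it in MYC against WT AP (Cldn4 at -1.06). With the values as deposited and the 5 scalings, the median log2 ratio of all genes lay between -0.18 and 0.23 in VP, -0.17 and 0.03 in DLP, and -0.0015 and 0.50 in AP. Between WT lobes, Krt8 and Krt18 moved it to -1.40 (VP against DLP) and 1.30 (AP against VP). Over all genes, the split of higher and lower genes depended on the scaling. In MYC against WT VP, 850 higher and 736 lower became 553 and 1086 with equal sums, 532 and 1180 without the 20 highest genes, 1002 and 321 with Krt8 and Krt18, and 1291 and 539 with Cdh1 and Epcam. In DLP, 799 and 419 became 661 and 558 without the 20 highest genes and 654 and 744 with Krt8 and Krt18. In AP, 254 and 74 became 200 and 134 with medians of ratios, 449 and 54 with Krt8 and Krt18, and 759 and 27 with Cdh1 and Epcam. In WT VP against DLP, 325 and 778 became 496 and 532 with medians of ratios, 63 and 9885 with Krt8 and Krt18, and 406 and 593 with Cdh1 and Epcam. In WT AP against DLP, 162 and 476 became 222 and 359 with medians of ratios, 276 and 323 with equal sums, and 97 and 835 with Cdh1 and Epcam. In WT AP against VP, 1274 and 975 became 8439 and 158 with Krt8 and Krt18 and 677 and 1869 with Cdh1 and Epcam. A pseudocount of 0.1 gave 1246 and 1275 in MYC against WT VP, 523 and 114 in AP, 449 and 1379 in WT VP against DLP and 299 and 736 in WT AP against DLP. A minimum mean of 10 FPKM left 5360 genes, and so lower counts, such as 385 and 386 in MYC against WT VP, 241 and 195 in DLP and 117 and 42 in AP. What decides between scalings was not tested. Depth limits Cldn2, with at most 3 reads, and Cldn10 in WT AP, with 215.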
